A study of Mus musculus with 8 samples.

Results

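The troponin genes encode the calcium-sensitive switch of the striated muscle thin filament, and were followed here in muscle stem cells (MuSCs) of aged mice treated with nicotinamide and pyridoxine (NAM/PN). Members were taken by gene symbol, as all mouse genes of the troponin C, troponin I and troponin T families, which gave 8 genes (Tnnc1, Tnnc2, Tnni1, Tnni2, Tnni3, Tnnt1, Tnnt2 and Tnnt3) of 12060 tested. MuSCs are the quiescent myogenic progenitors of adult muscle, which enter the cell cycle in culture and can then exit it to form contractile myotubes. The cells came from aged mice (labelled old) and had been isolated by FACS as CD31-, CD11b-, CD45-, Sca1-, CD34+ and ITGA7+ cells. The aged male C57BL/6JRj mice of the MuSC culture assay were 23 to 24 months old. NAM is a form of vitamin B3 and PN a form of vitamin B6. The combination was labelled as 1 mM in growth medium, with no separate value for each compound, against 1% DMSO as vehicle, for 72 hours. The paper's description of its mouse MuSC culture assay gives less DMSO and a longer culture than these labels. Cells of 8 mice were combined into 4 pools of 2 mice, and each pool was split over a vehicle and a NAM/PN culture, giving 4 libraries per condition.

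In the contractile apparatus, troponin C binds calcium, troponin I holds the complex on actin and inhibits contraction until calcium arrives, and troponin T anchors the complex to tropomyosin. Each subunit has genes named after the muscle in which they predominate. Tnnc1 is the slow and cardiac troponin C and Tnnc2 the fast one. Tnni1, Tnni2 and Tnni3 are the slow, fast and cardiac troponin I genes, and Tnnt1, Tnnt2 and Tnnt3 the slow, cardiac and fast troponin T genes. Tnnt2 is also transcribed in embryonic and regenerating skeletal muscle, and differentiating myoblasts in culture can transcribe slow, fast and cardiac genes side by side.

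Troponin transcripts were lower with NAM/PN in aged MuSCs. All 8 genes passed the filter on low counts, 6 were called lower and 0 higher, at folds between 2.53 and 8.16. Among all 12060 genes tested, 0.995% were called lower and 0.282% higher. The 2 genes that were not called, Tnni2 and Tnni3, also had negative fold changes. The median log2 fold change was -1.81 over the 8 members and -0.0022 over all genes tested. In 7 of the 8 genes every NAM/PN library was below every vehicle library, which held for 4.42% of all genes tested, and the same 7 genes were lower with NAM/PN in all 4 pools. Calls were made with edgeR's quasi-likelihood test at a Benjamini-Hochberg adjusted p of 0.05 over all genes. Without pool 2 only 1 of the genes, Tnnt1, was called, without pool 3 there were 3, and without NAM/PN libraries 1 and 2 together there were 0, each with all fold changes still negative. Calls over all genes fell too, to 0.305% lower without pool 2, 0.669% without pool 3 and 0.516% without NAM/PN libraries 1 and 2.

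Levels are given as CPM (a count over the library total, scaled to a common library size) after scaling by the trimmed mean of M-values. The libraries held between 6472484 and 10163101 counts, and a floor of 3 counts corresponded to between 0.295 and 0.464 CPM. Reads were taken at the 3′ end of transcripts, so that CPM was not divided by gene length. The summed level of the 8 genes was 484, 663, 776 and 987 CPM in vehicle libraries 1 to 4. With NAM/PN it was 132, 258, 154 and 314 CPM. The mean was 728 ± 211 CPM with vehicle and 215 ± 86.4 CPM under NAM/PN (SD, n = 4 libraries each), a 3.39-fold difference with no overlap between conditions. Ribosomal RNA counted on CT010467.1 took 18.7% of vehicle library 3 and 5.22% to 11.6% of the others, and without that library 5 troponin genes were called. Pool 1 was the lowest and pool 4 the highest in both conditions. In these bulk cultures, fewer cells expressing troponins and less troponin RNA per cell cannot be told apart.

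**Figure D1:**
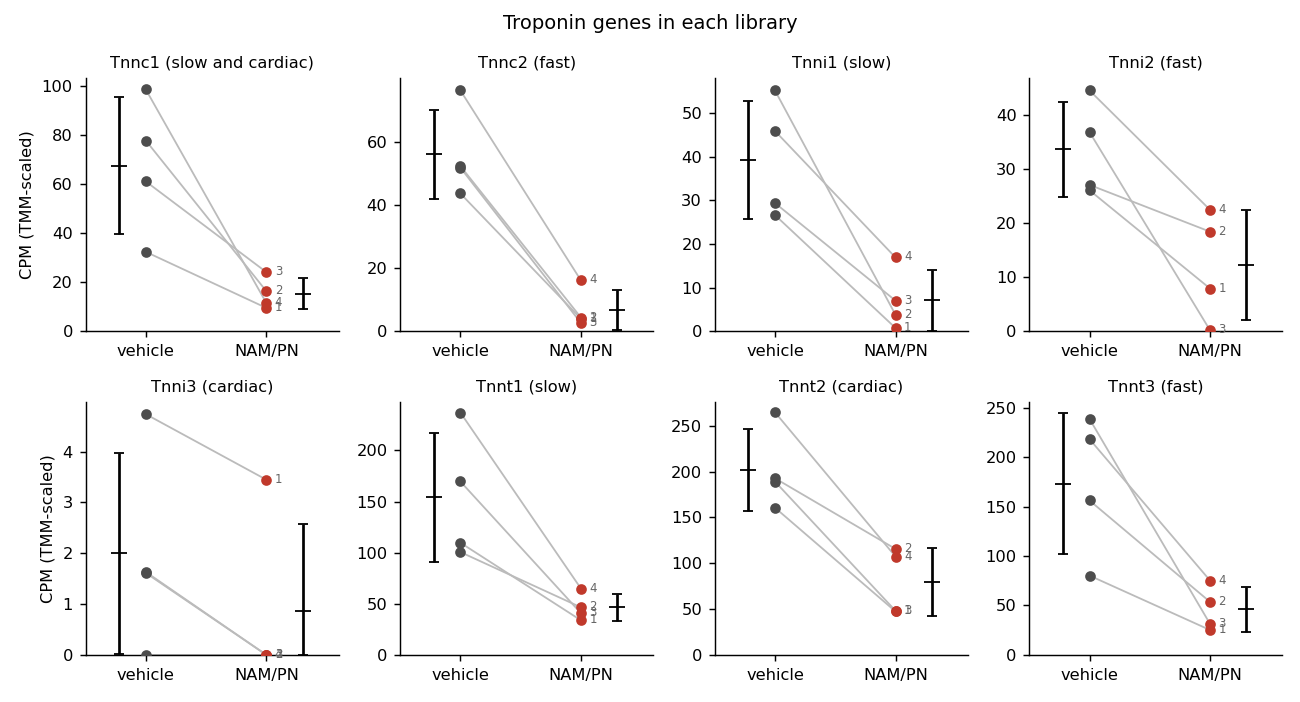
CPM of each troponin gene in each library on a linear axis from 0, with gray lines joining the vehicle and NAM/PN library of a pool (pool numbers at the right) and bars for mean ± SD of 4 libraries. The vehicle and NAM/PN points separate in 7 genes and overlap in Tnni3, which was at 0 in 4 libraries.

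The 250 bases before a transcription start are shown for 5 of the called genes, as background to the motif counts described below. Sequences are RefSeq's, on GRCm38.p6, and run 5′ to 3′ on the strand of the gene to the base before the annotated start. Capitals mark the E-boxes CAGCTG and CACCTG (or its complement CAGGTG), MCAT elements (CATTCC or GGAATG) and TATAAA. Since genes have several annotated starts, the Tnni1 and Tnnt1 windows and most of the Tnnc2 window lie inside the GENCODE span of the gene. The windows lie at chr14:31208062-31208311, plus strand (Tnnc1), chr2:164779735-164779984, minus strand (Tnnc2), chr1:135799171-135799420, plus strand (Tnni1), chr7:4515976-4516225, minus strand (Tnnt1), and chr1:135836084-135836333, plus strand (Tnnt2).
Tnnc1: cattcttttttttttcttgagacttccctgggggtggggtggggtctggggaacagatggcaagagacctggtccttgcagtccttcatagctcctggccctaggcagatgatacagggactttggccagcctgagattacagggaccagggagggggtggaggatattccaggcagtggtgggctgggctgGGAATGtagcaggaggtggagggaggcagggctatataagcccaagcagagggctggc
Tnnc2: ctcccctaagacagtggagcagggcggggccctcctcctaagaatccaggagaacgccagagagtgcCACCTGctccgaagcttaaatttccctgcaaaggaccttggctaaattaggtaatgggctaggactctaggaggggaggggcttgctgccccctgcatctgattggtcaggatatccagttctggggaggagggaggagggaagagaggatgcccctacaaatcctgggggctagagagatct
Tnni1: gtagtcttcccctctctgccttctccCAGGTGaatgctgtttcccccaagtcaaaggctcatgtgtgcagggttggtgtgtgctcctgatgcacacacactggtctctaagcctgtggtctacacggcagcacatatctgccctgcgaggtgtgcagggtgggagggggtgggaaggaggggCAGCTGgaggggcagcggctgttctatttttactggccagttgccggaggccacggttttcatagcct
Tnnt1: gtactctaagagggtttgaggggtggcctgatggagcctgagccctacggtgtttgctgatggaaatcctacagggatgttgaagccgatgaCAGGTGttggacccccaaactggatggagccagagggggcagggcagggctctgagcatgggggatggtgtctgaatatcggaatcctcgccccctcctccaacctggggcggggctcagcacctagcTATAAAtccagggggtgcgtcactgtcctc
Tnnt2: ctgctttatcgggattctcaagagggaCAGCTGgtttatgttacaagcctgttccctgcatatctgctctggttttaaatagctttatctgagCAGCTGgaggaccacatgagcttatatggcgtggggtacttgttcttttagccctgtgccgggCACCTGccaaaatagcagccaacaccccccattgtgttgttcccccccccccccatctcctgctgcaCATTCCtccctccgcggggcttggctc

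RefSeq windows were matched for 6 of the 8 genes, 8 windows in all, since Tnni1 and Tnnt2 each had another start. Motifs were searched on both strands, and CAGCTG and CACCTG are both forms of the general E-box CANNTG, to which MyoD and myogenin bind. The general E-box was in 8 of 8 troponin windows and in 66.2% of the 32851 windows of all genes. CAGCTG was in 3 of 8 windows, 1 of Tnnt2 and both of Tnni1, which overlap and share a single CAGCTG site, and in 13.0% of all windows. CACCTG was in 4 of 8 (Tnnc2, Tnni1, Tnnt1 and Tnnt2) and in 17.2% of all. The MCAT element, a TEAD binding motif, was in 2 of 8 (Tnnc1 and Tnnt2) and in 12.6% of all. Of the 2 motifs not marked, the MEF2 motif matched 2.92% of all windows and the CArG box of serum response factor 1.47%, and 0 of 8 troponin windows held either. TATAAA was found in the Tnnt1 window, 30 bases before the start, and in 12.4% of all windows. The Tnnt2 window shown held CAGCTG at -223 and -157, CACCTG at -94 and CATTCC at -27. The other Tnnt2 window, whose start lies in a GENCODE transcript while that of the window shown was not matched to one, held no marked motif. These matches describe letters in the windows, and binding was not measured.

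Troponin C, the calcium sensor, had the largest ratio of the subunits by summed level, 5.59-fold, from 123 to 22.1 CPM, against 3.71-fold for troponin I and 3.07-fold for troponin T. Tnnc2, the fast gene, was at 43.6, 52.2, 51.7 and 76.2 CPM with vehicle and at 3.94, 4.32, 2.59 and 16.1 CPM under NAM/PN. NAM/PN library 4 stood above the other NAM/PN libraries and still below every vehicle library. The fold change was -3.03 on the log2 scale (SE 0.48, edgeR adjusted p = 0.00157), the largest fall among the members. Without NAM/PN library 4 it was -3.94. The call was lost without pool 2 (-2.90, edgeR adjusted p = 0.0524). On the opposite strand Ube2c, a mitotic ubiquitin-conjugating enzyme, overlaps 592 of the 800 exonic bases of Tnnc2, including 144 of the 173 bases of its last exon. The strand setting of the counting is not given in the sources used here, so that reads of this overlap may be assigned to either gene or to none. Ube2c itself had between 1546 and 3824 counts per library and a log2 fold change of 0.19 (edgeR adjusted p = 0.859).

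Tnnc1, the slow and cardiac gene, was at 32.3, 77.7, 61.0 and 98.5 CPM with vehicle and at 9.48, 16.3, 24.1 and 11.5 CPM under NAM/PN. All NAM/PN values were below the lowest vehicle value, which was vehicle library 1. The log2 fold change was -2.14 (SE 0.36, edgeR adjusted p = 0.00325). Without pool 2 or pool 4 the adjusted p was 0.0786 and 0.0740. Nisch lies over Tnnc1 on the opposite strand, with 0 exonic bases in common. Whether the fall of Tnnc2 was larger than that of Tnnc1 was not tested. The fast gene Tnnc2 held 46.8% ± 7.46 of troponin C counts with vehicle and 29.6% ± 20.8 with NAM/PN (SD, n = 4), between 9.71% and 58.3% in single NAM/PN libraries, so that the ranges overlapped.

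Troponin I, the inhibitory subunit, was the least abundant by mean, with summed levels of 74.9 CPM with vehicle and 20.2 CPM under NAM/PN. In NAM/PN libraries 2 and 4 it was above troponin C (22.2 against 20.6 CPM and 39.3 against 27.6 CPM), and in libraries 1 and 3 below it. Slow Tnni1 was at 26.6, 55.2, 29.4 and 45.9 CPM with vehicle and at 0.739, 3.76, 7.0 and 16.9 CPM under NAM/PN. The conditions did not overlap, and the NAM/PN libraries were spread widely, from 6 counts in library 1 to 181 in library 4. The log2 fold change was -2.45 (SE 0.60, edgeR adjusted p = 0.0469). This call lies at the threshold. It was lost in 10 of the 12 fits that left out a library or a pool, with adjusted p up to 0.459, and was kept without NAM/PN library 4 (-3.37) and without pool 4 (-3.28).

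Fast Tnni2 was at 26.1, 27.0, 36.8 and 44.5 CPM with vehicle and at 7.88, 18.4, 0.152 and 22.4 CPM under NAM/PN. The conditions did not overlap, but the value of 0.152 CPM came from 1 count, below the floor of 3 counts, in NAM/PN library 3. With a log2 fold change of -1.45 (SE 0.65) the edgeR adjusted p was 0.485, or 0.321 with the pool as a replicate block. Without the filter on low counts the adjusted p was 0.0308. Cardiac Tnni3 had 40, 13, 0 and 15 counts with vehicle and 28, 0, 0 and 0 with NAM/PN. Pool 1 thus held most of its counts in both conditions, at 4.74 and 3.45 CPM. The fitted log2 difference was -1.19 with an SE of 2.05 (edgeR adjusted p = 0.959), so that the difference was within the spread between libraries.

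Within troponin I the mixture differed from library to library under NAM/PN. Tnni2 made up shares of 32.2% to 55.6% of troponin I counts with vehicle, and of 2.13% to 83.0% under NAM/PN. NAM/PN library 3 had nearly only Tnni1, at 97.9% of troponin I counts, and library 1 nearly none of it, at 6.12%. These shares rest on few reads, since NAM/PN library 3 had 47 troponin I counts. The means of 45.4% ± 9.76 with vehicle and 51.9% ± 34.9 with NAM/PN (SD, n = 4) overlapped.

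Troponin T, which ties the complex to tropomyosin, was the most abundant subunit, at 529 CPM with vehicle and 172 CPM under NAM/PN. Slow Tnnt1 was at 110, 101, 170 and 237 CPM with vehicle and at 33.9, 46.5, 40.8 and 64.9 CPM under NAM/PN. The highest NAM/PN value was well below the lowest vehicle value. The log2 fold change was -1.73 (SE 0.27, edgeR adjusted p = 0.00169). Tnnt1 was the only troponin gene called in all 12 fits that left out a library or a pool, with adjusted p of at most 0.0284. Without NAM/PN libraries 1 and 2 together it was 0.0683.

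Cardiac Tnnt2 had the highest level of the family, at 161, 193, 189 and 265 CPM with vehicle and 47.4, 116, 48.1 and 107 CPM under NAM/PN. NAM/PN libraries 1 and 3 were lower than libraries 2 and 4, and all 4 were below vehicle. The log2 fold change of -1.34 (SE 0.27, edgeR adjusted p = 0.0132) was the smallest among the called genes. In 8 of the 12 fits that left out a library or a pool the call was lost, with adjusted p up to 0.101. Fast Tnnt3 was at 80.2, 156, 238 and 218 CPM with vehicle and at 25.1, 53.5, 31.2 and 75.1 CPM under NAM/PN. The ranges were close, with 75.1 CPM as the highest NAM/PN and 80.2 CPM as the lowest vehicle value, which came from different pools. Its log2 fold change was -1.90 (SE 0.34, edgeR adjusted p = 0.00427), and the call was lost without pool 2 (adjusted p = 0.0762) and without pool 3 (adjusted p = 0.0744).

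The makeup of the troponin T pool overlapped between conditions. With vehicle, Tnnt1 held 28.8%, Tnnt2 39.3% and Tnnt3 31.9% of troponin T counts. With NAM/PN the shares were 28.4%, 45.4% and 26.2%, and the ranges of all 3 overlapped between conditions. Troponin T as a whole held 72.5% ± 3.76 of the counts of the family with vehicle and 80.2% ± 2.43 with NAM/PN (SD, n = 4). Its ranges of 67.8% to 76.9% and 78.0% to 83.5% did not overlap. The corresponding shares of troponin C were 16.9% and 11.1%, and those of troponin I 10.6% and 8.72%, with overlapping ranges. No test was made on these shares, which sum to the whole and so depend on each other.

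**Figure D2:**
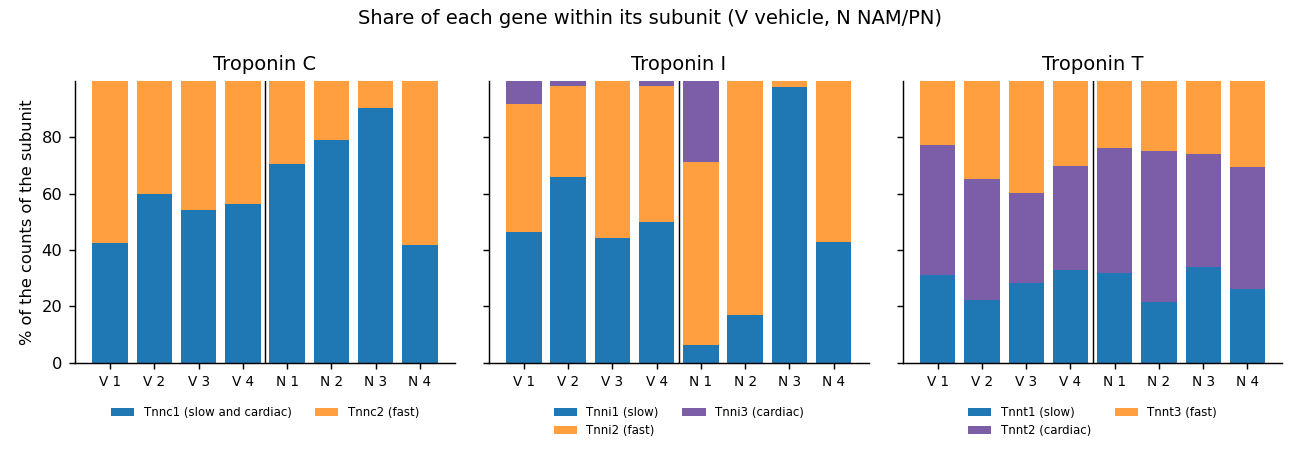
Percent of the counts of troponin C, troponin I and troponin T held by each gene in vehicle (V) and NAM/PN (N) libraries 1 to 4, as stacked bars from 0. The shares within troponin T overlap between conditions, and Tnni2 ranges from 2.13% to 83.0% of troponin I in NAM/PN libraries.

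The order of levels was led by troponin T in both conditions. With vehicle it ran from Tnnt2 over Tnnt3, Tnnt1, Tnnc1, Tnnc2, Tnni1 and Tnni2 to Tnni3. Of these neighbors, only Tnnt1 and Tnnc1, and Tnni2 and Tnni3, had ranges over libraries that did not overlap. With NAM/PN the order was Tnnt2, Tnnt1, Tnnt3, Tnnc1, Tnni2, Tnni1, Tnnc2 and Tnni3, and only Tnnt3 and Tnnc1 were separated. Tnnc2 moved from the fifth to the seventh place. These levels are of 3′ reads on the CPM scale, not of protein.

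The partners of troponin on the thin filament were followed as a list of actins, tropomyosins, nebulin, leiomodins and tropomodulins. Of 12 genes, 11 were tested, with a median log2 fold change of -1.16. Against 0.995% of all genes, 2 of the 11 were called lower. With the pool as a replicate block 4 of them were called, Actc1 and Lmod3 in addition, and voom called 5. Acta1, skeletal actin, fell from 394 ± 90.5 to 60.5 ± 39.0 CPM (log2 fold change -2.70, edgeR adjusted p = 0.000974), and a robust fit lost the call (adjusted p = 0.126). Neb, the giant ruler protein of the thin filament, fell from 247 ± 103 to 67.2 ± 18.1 CPM (-1.88, edgeR adjusted p = 0.000685). Tpm1, a tropomyosin and the most abundant gene of the list, was at 1597 ± 96.2 CPM with vehicle and 1109 ± 25.8 CPM under NAM/PN (-0.53, edgeR adjusted p = 0.0561). Its NAM/PN libraries were all below its vehicle libraries, and it was called by DESeq2 (adjusted p = 2.0e-05), by voom (0.00129) and by a robust fit (0.0354). The test used here did not call it with all libraries, but did without vehicle library 3 or NAM/PN library 4 (edgeR adjusted p = 0.0409 and 0.0444). Tpm1 is also transcribed in non-muscle cells. The actin-binding regulators that serve cells without troponin, caldesmon, calponins and transgelins, had 0 of 4 tested genes called by edgeR (median -0.32). With 0.995% of all genes called lower, 0 of 4 does not set this list apart. Of the 4, 2 had an unadjusted p under 0.05, and DESeq2 and voom called them. Among these regulators, Cald1 had a log2 fold change of -0.54 (edgeR adjusted p = 0.0769) and Cnn3 of -0.58 (edgeR adjusted p = 0.154). Without vehicle library 3 Cnn3 was called (-0.71, edgeR adjusted p = 0.0319).

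Calcium reaches troponin from the sarcoplasmic reticulum, and 14 of 19 genes of calcium release and uptake were tested. Of these 5 were called lower and 0 higher, against 0.995% and 0.282% of all genes tested, with a median of -1.40. Cacng1, the gamma subunit of the skeletal muscle calcium channel, fell from 72.3 ± 17.7 to 17.6 ± 8.74 CPM (-2.03, edgeR adjusted p = 0.00359). Stac3, an adaptor of the same channel, fell from 24.4 ± 6.09 to 5.04 ± 1.24 CPM (-2.27, edgeR adjusted p = 0.0130). That call was lost in 6 of 12 fits without a library or a pool (adjusted p up to 0.190), with voom (0.0757) and without NAM/PN libraries 1 and 2 together (0.143). The calcium pump Atp2a2, the most abundant of the list and used in many cell types, was at 256 ± 43.5 and 292 ± 34.1 CPM (0.19, edgeR adjusted p = 0.867).

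Other sarcomere genes, of the myosin thick filament and, with the uncalled fast gene Actn3, the Z-disc, were listed as slow, fast or developmental. Of the fast list 3 of 4 tested genes were called lower (median -2.50), of the slow list 1 of 2 (median -1.34), and of the developmental list 2 of 3 (median -2.59). The share called lower over all genes tested was 0.995%. Mylpf, the fast regulatory light chain, fell from 245 ± 46.8 to 46.1 ± 21.8 CPM (-2.41, edgeR adjusted p = 0.000318). Myl1, the fast essential light chain, had a log2 fold change of -2.60 (edgeR adjusted p = 0.000303), and the slow myosin-binding protein Mybpc1 of -2.66 (edgeR adjusted p = 0.0253). Myh3, the embryonic myosin heavy chain, fell from 87.5 ± 28.8 to 17.4 ± 5.58 CPM (-2.33, edgeR adjusted p = 0.000232), and Myl4, the embryonic and atrial light chain, had a log2 fold change of -3.07 (edgeR adjusted p = 0.0124). Myl6b, at -0.016 (edgeR adjusted p = 1.00), is a light chain that was not called. Of the adult heavy chains in these lists, Myh1, a fast one, fell from 31.4 ± 4.70 to 3.57 ± 2.89 CPM (-3.12, edgeR adjusted p = 0.0257), and Myh7, Myh7b, Myh2 and Myh4 did not pass the filter. Where a library or a pool was left out, the call of Mybpc1 was lost in 8 of 12 fits (adjusted p up to 0.172) and that of Myl4 in 5 of 12 (up to 0.200), and a robust fit also lost Mybpc1 (0.0693). The log2 fold change of Mybpc1 was -3.61 without NAM/PN library 2 and -4.16 without NAM/PN libraries 1 and 2.

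**Figure D3:**
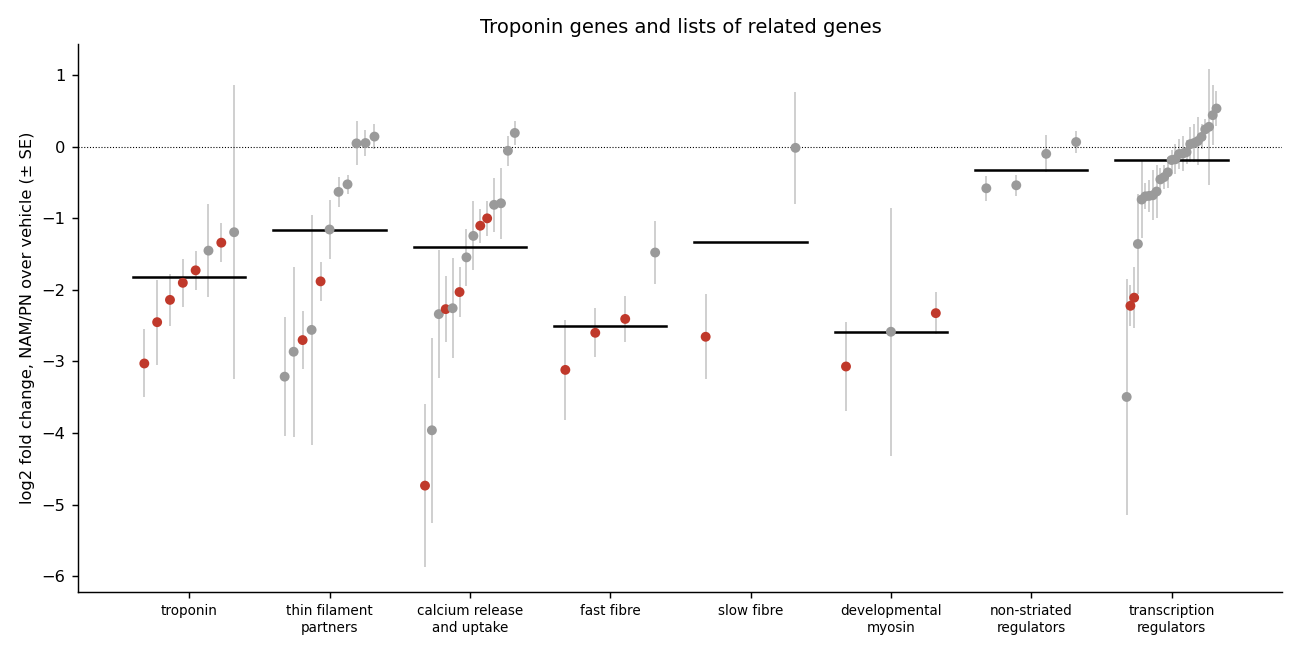
Log2 fold change (NAM/PN over vehicle, ± SE) of each tested gene in the troponin family and in 7 lists of related genes, with red points for genes called lower, gray points for genes not called and black bars for medians. The troponin median of -1.81 lies between those of the fast fiber list (-2.50) and the thin filament partners (-1.16).

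Transcription factors known to act on muscle promoters, with their cofactors and inhibitors, were tested for 25 of 26 genes. Against 0.995% of all genes, 2 of the 25 were called lower, Myog and Mef2c, 0 were called higher, and the median was -0.19. DESeq2 called 4, voom 3, and 8 had an unadjusted p under 0.05. Myog, myogenin, which drives the terminal step of myogenic differentiation, fell from 929 ± 390 to 199 ± 74.3 CPM (-2.22, edgeR adjusted p = 0.000232). Mef2c, a partner of the myogenic factors, fell from 40.0 ± 17.4 to 9.23 ± 4.24 CPM (-2.11, edgeR adjusted p = 0.0125). The call of Mef2c was lost in 6 of 12 fits without a library or a pool (adjusted p up to 0.131) and without NAM/PN libraries 1 and 2 together (0.0827). Myod1, the myogenic factor of activated MuSCs and the most abundant of the list, was at 1366 ± 175 CPM with vehicle and 1201 ± 134 CPM under NAM/PN (-0.19, edgeR adjusted p = 0.824). Pax7, the marker of MuSC identity, had a log2 fold change of -0.18 (edgeR adjusted p = 0.923) and Mki67, a marker of cycling cells, of 0.04 (edgeR adjusted p = 0.988). Relative to Myog, the summed troponin level was 0.712, 0.637, 1.37 and 0.691 CPM per CPM of Myog with vehicle and 1.22, 1.09, 0.888 and 1.13 with NAM/PN, with overlapping ranges. Relative to Acta1 it was 1.43 to 2.20 with vehicle and 2.63 to 11.5 under NAM/PN, without overlap, and relative to Mylpf 2.24 to 3.87 and 2.94 to 9.39, with overlap.

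The 5 genes whose levels were most like the mean log2 CPM of the troponin genes were sought among the 9205 genes outside the family whose mean log2 CPM was 3 or more. Most alike over the 8 libraries were Myh3 (Pearson r = 0.991), Acta2 (0.990), Vamp5 (0.987), Pgm5 (0.985) and Mymk (0.978). These values rest largely on the difference between conditions that the genes share. After each condition's mean was subtracted they were 0.934, 0.925, 0.911, 0.899 and 0.867, in the same chosen genes and libraries. Because the choice was made on these 8 libraries, the falls given below follow largely from it and add no separate evidence. Acta2 encodes smooth muscle actin, which differentiating myoblasts also transcribe, and Mymk encodes myomaker, the fusion protein of myoblasts. Mymk fell from 96.2 ± 46.0 to 15.8 ± 10.5 CPM (-2.60, edgeR adjusted p = 0.000974). Acta2 fell from 368 ± 125 to 70.5 ± 35.1 CPM (-2.38, edgeR adjusted p = 0.000147). Pgm5 fell by 4.30 on the log2 scale (edgeR adjusted p = 0.0100, lost in 5 of 12 fits without a library or a pool, with voom and without NAM/PN libraries 1 and 2 together), while Vamp5 at -1.24 was not called (edgeR adjusted p = 0.0757, but called by DESeq2 at 0.0122 and without NAM/PN library 4 at 0.0493). Among the members themselves, r with the mean of the other 7 genes ran from 0.198 for Tnni3 to 0.980 for Tnnc2. Within conditions it ran from -0.477 for Tnni3 to 0.863 for Tnnc2, and Tnnc1 had -0.177.

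Troponin genes lie in pairs of an I and a T gene. On GRCm38, Tnni1 (chr1:135779434-135810989, plus strand) and Tnnt2 (chr1:135836354-135852260, plus strand) are 25.4 kb apart with Lad1, which was not tested, between them. Tnnt1 (chr7:4504570-4516382, minus strand) and Tnni3 (chr7:4518305-4524229, minus strand) are 1.92 kb apart with 0 genes between. Elsewhere on chromosome 7, Tnni2 (chr7:142441808-142444410, plus strand) and Tnnt3 (chr7:142498836-142516009, plus strand) are 54.4 kb apart with Lsp1 between them. Both genes of the first pair were called lower, whereas in each of the others the T gene was called and the I gene was not. Tnnc1 (chr14:31208312-31211729, plus strand) and Tnnc2 (chr2:164777161-164779967, minus strand) have no other troponin gene on their chromosomes.

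Among the nearest tested genes on either side that were not troponins, 0 of 11 were called by edgeR, 0 by DESeq2 and 0 by voom. Of all genes tested, 0.995% were called lower and 0.282% higher, so that 0 calls among 11 genes do not set the neighbors apart. Of the 11, 8 had negative fold changes and 2 had an unadjusted p under 0.05. Log2 fold changes ran from -1.05 (Snx21, 5.86 kb from Tnnc2) to 0.46 (Nt5dc2, 69.2 kb from Tnnc1), with a median of -0.37. Lsp1, an actin-binding protein of leukocytes and other cells that sits between Tnni2 and Tnnt3, was at 34.0 ± 3.59 CPM with vehicle and 17.6 ± 3.38 CPM under NAM/PN (-0.95, edgeR adjusted p = 0.222). Phlda3, beside Tnni1, had -0.37, Ctsd, beside Tnni2, -0.18, and Ppp1r12c, 2.89 kb from Tnnt1, -0.47. Near 0 were Dnttip1 (0.018) beside Tnnc2 and Phf7 (-0.015) beside Tnnc1. Pkp1 at -1.02, Mrpl23 at -0.77 and Tmem86b at 0.23 had few counts, with SE of 2.13, 1.74 and 1.45.

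**Figure D4:**
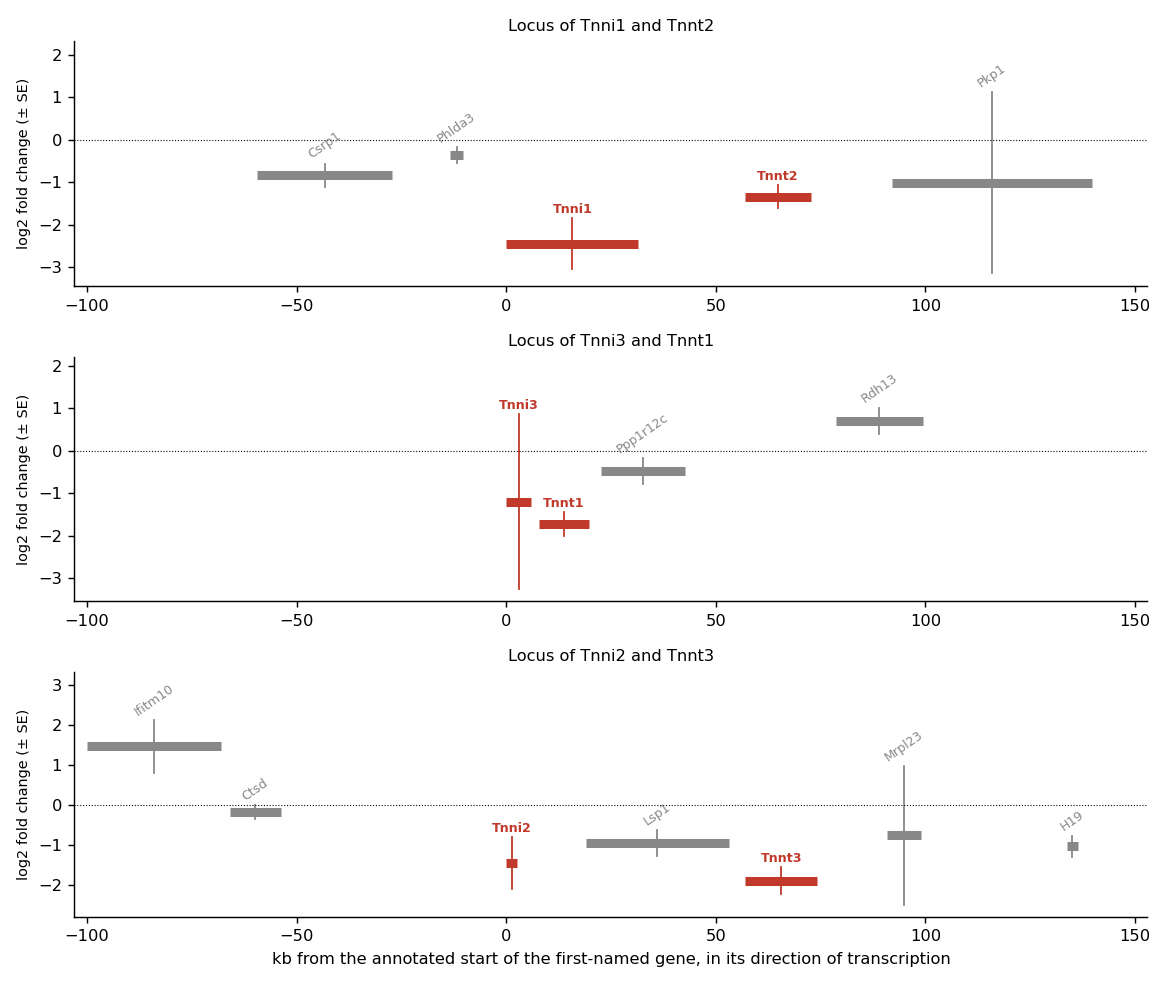
Log2 fold change (vertical lines, ± SE) of every tested gene at the 3 loci with a pair of troponin genes, drawn as bars over its extent in kb from the start of the first-named gene, with troponin genes in red and others in gray. The nearest genes outside the family, among them Phlda3, Lsp1 and Ppp1r12c, lie closer to 0 than the called troponin genes beside them.

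The label of the cells was set against marker lists. The 10 myogenic markers summed to 3029 to 3445 CPM with vehicle and 2399 to 3032 CPM under NAM/PN, lower with NAM/PN in all 4 pools. Of the 9 tested, 8 had negative fold changes and 2 had an unadjusted p under 0.05. Voom called 1 and edgeR 0, where 0.995% of all genes were called lower by edgeR. Of 8 heart markers, 6 including Myh6, Nppa and Nkx2-5 were at 0 in all libraries and the list summed to at most 0.544 CPM, in cultures where cardiac Tnnt2 was the most abundant troponin. Immune markers summed to at most 7.58 CPM (5 of 6 genes at 0), endothelial markers to at most 7.25 CPM (3 of 6 at 0) and Schwann cell markers to at most 12.6 CPM (2 of 4 at 0). Markers of mature fibers summed to 307 to 507 CPM with vehicle and 12.7 to 103 CPM under NAM/PN, mostly through Acta1 (286 to 475 and 11.4 to 98.1 CPM), the only 1 of the 4 tested genes that was called. The 6 mural and smooth muscle markers summed to 285 to 608 and 95.9 to 156 CPM, through Acta2, while Myh11 was at 0 in all libraries and Notch3 and Cspg4 were not called. Fibro-adipogenic markers summed to 153 to 207 CPM with vehicle and 57.0 to 1123 CPM with NAM/PN, of which Col1a1 held 486 CPM in NAM/PN library 1 and 1032 CPM in library 2 and at most 41.3 CPM elsewhere. Col3a1, the only gene of that list called, went the other way, from 155 ± 7.86 to 69.2 ± 12.7 CPM (-1.17, edgeR adjusted p = 0.00255), with no overlap between conditions, while Pdgfra and Lum were at 0 in all libraries. The part of these differences in the troponin result was not tested. Without those 2 libraries, the log2 fold changes of the 6 called genes were -1.93 (Tnnc1), -2.56 (Tnnc2), -1.71 (Tnni1), -1.54 (Tnnt1), -1.37 (Tnnt2) and -1.70 (Tnnt3), none of them called, and 69 of 13385 genes were called lower.

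**Figure D5:**
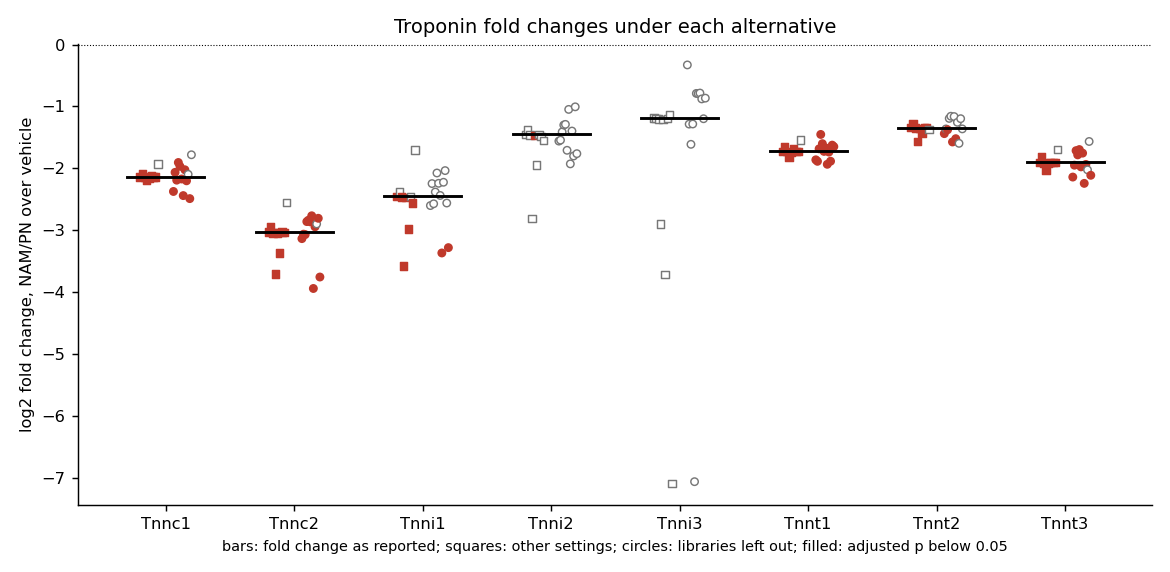
Log2 fold change of each troponin gene as reported (black bars), with libraries or pools left out (circles) and under the other settings (squares), filled where the edgeR, DESeq2 or voom adjusted p was below 0.05. Every fold change is below 0, and Tnni3 spans the widest range, from -7.10 to -0.33.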

How the data were processed

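Values were the raw read counts per gene that the authors deposited, in 8 libraries, unfiltered and not normalized. Reads had been demultiplexed (Bcl2FastQ, casava), aligned with RNASTAR to GRCm38 and counted by HTSeq, given as version 2.16.2 in the submitters' processing notes. The annotation, strand setting and treatment of multimapping reads are not given in the sources used here. Libraries were made from 3′ ends (QuantSeq), so each library's depth (6472484 to 10163101 counts) covers few bases per gene. Floors reflect only counting error.

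The labelled treatment defined the groups. Genes were filtered with filterByExpr (minimum count 10, minimum total 15), scaled by TMM and tested with glmQLFit and glmQLFTest in edgeR 4.0.16 (R 4.3.3), with Benjamini-Hochberg adjustment over 12060 genes and a threshold of 0.05. Log2 CPM used a prior count of 2. Alternatives with DESeq2 1.42.0, limma 3.58.1, other scalings and libraries left out are in the closing section. The alternative named voom also weighted libraries by quality and modeled the correlation within pools (voomWithQualityWeights with duplicateCorrelation). Since a pool number names the same mice in both conditions, pools pair the libraries. The main test did not use this pairing, whereas the replicate block did. Deviations from the group means of same-numbered libraries correlated between -0.03 and 0.03, and those of other pairs between -0.06 and 0.04. Each pool was cultured once per condition, and p-values measure the spread between these libraries.

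Positions came from GENCODE M21 on GRCm38, which held 55141 of 55487 identifiers. Between members, 0 exonic sequences of 30 bases were shared, except 2 between Tnni1 and Tnnt2. Named besides the members were the 2 genes with the smallest p and the most abundant gene of each list, nearest tested neighbors, the 5 most similar genes, Pax7, Myod1, Myog and Mki67. Ube2c, Nisch, Lad1, Actc1, Lmod3, Actn3, Myh1, the myosins that did not pass the filter and single markers were named after values were seen. A single one of the lists is not reported here. The members and lists were chosen with earlier results of these data known. The fitting was tested on simulated data. Figures were drawn with matplotlib 3.10.9.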

Additional observations from a re-analysis of the deposited data

Results flagged for a closer look

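Of 96 groups of 4 libraries examined for the named genes, 10 held a highest or lowest library that stood apart by Dixon's test at the 95% level, where about 4.8 would do so by chance. For the troponins, Tnnc2 was at 16.1 CPM in NAM/PN library 4, against 2.59 to 4.32 CPM in the other NAM/PN libraries, and Tnni3 was at 3.45 CPM in NAM/PN library 1, against 0 in the others, where any count would have stood apart, so that it adds nothing to the comparison with chance. NAM/PN library 4 also stood apart for Mymk (31.5 CPM, others 9.90 to 11.3), Pax7 (97.3 CPM, others 196 to 200), Ctsd (579 CPM, others 363 to 399) and Nt5dc2 (323 CPM, others 184 to 205). NAM/PN library 3 stood apart for Cald1 (802 CPM, others 627 to 657) and Mrpl23 (0, others 1.95 to 2.22 CPM). In vehicle, Cacng1 was at 98.7 CPM in library 4 (others 61.3 to 65.0) and Tpm1 at 1454 CPM in library 1 (others 1627 to 1654). Without NAM/PN library 4 the log2 fold change of Tnnc2 was -3.94 and that of Tnni1 -3.37, both still called by edgeR.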

How the results depend on the processing

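The count of troponin genes called lower, 6, was between 1 and 6 with a library or pool left out (lowest without pool 2), was 0 without NAM/PN libraries 1 and 2 (chosen after seeing the data) and was between 5 and 7 under the 9 other settings. With a library or pool left out, log2 fold changes ran from -2.49 to -1.78 (Tnnc1), -3.94 to -2.77 (Tnnc2), -3.37 to -2.04 (Tnni1), -1.60 to -1.16 (Tnnt2) and -2.24 to -1.57 (Tnnt3). Without NAM/PN libraries 1 and 2 they were -1.93 (Tnnc1), -2.56 (Tnnc2), -1.71 (Tnni1), -1.54 (Tnnt1), -1.37 (Tnnt2) and -1.70 (Tnnt3), all uncalled, with fewer samples. Tnni1 lost its call with library totals (-2.38) and a robust fit (-2.45), and Tnni2 gained one without the filter (-1.47). The cause was not tested. Among lists, the replicate block called 4 thin filament genes, voom 5 (added after seeing the data), DESeq2 and voom each 2 non-striated regulators, and DESeq2 4 transcription factors. The replicate block changed no call of a troponin gene. Fold changes moved by over 1.5 times with voom for Tnnc2 (-3.71), Tnni1 (-3.58), Tnni2 (-2.81) and Tnni3 (-2.90), and with the block for Tnni3 (-3.72), whose fitted value was -7.06 without NAM/PN library 1 and -0.33 without vehicle library 1.

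For the other named genes the alternatives were chosen after seeing the data. With a library or pool left out, calls were lost for Mybpc1 (8 of 12 fits), Mef2c and Stac3 (6 each), Myl4 and Pgm5 (5 each) and Mymk (1), and the robust fit lost Acta1 and Mybpc1. Calls were gained for Tpm1 and Cnn3 without vehicle library 3, and for Tpm1 and Vamp5 without NAM/PN library 4. Fold changes near 0 turned sign for Myl6b (0.051 with library totals, 0.085 with voom), Phf7 (0.022 with library totals, 0.073 thinned, 0.45 without NAM/PN libraries 1 and 2), Tmem86b (-1.57 with voom, -0.62 with the replicate block), Dnttip1 (-0.0039) and Mki67 (-0.026), the last pair without NAM/PN libraries 1 and 2. With a library or pool left out, they ran from -0.073 to 0.16 (Dnttip1), -0.16 to 0.16 (Mki67), -1.41 to 0.62 (Mrpl23), -0.40 to 0.15 (Myl6b), -0.33 to 0.016 (Pax7), -1.33 to 0.44 (Phf7), -1.87 to 0.62 (Pkp1) and -0.54 to 1.02 (Tmem86b). Counts of Tnni3 were few (0 in 4 libraries), as was that of Tnni2 in NAM/PN library 3. Over all genes, DESeq2 called 388, voom 232, and the fit without a filter 366, against 154.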
